A study of Homo sapiens with 6 samples.

Results

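The minichromosome maintenance (MCM) genes encode the replicative helicase of human cells and its close relatives. The 9 members examined here, MCM2 to MCM10, were taken by gene symbol from the deposited gene table, which lists 34738 genes. All 9 were listed, and 8 of them passed a filter on low values that left 11867 genes for testing. MCM9 averaged under 1 FPKM over the 6 libraries and was tested only under a looser filter. FPKM is a level per length of transcript, adjusted for how many fragments each library had.

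The study asked how loss of GDF15, a stress-induced secreted factor of the TGF-beta superfamily, changed the transcriptome of thyroid cancer cells. The siGDF15 group held 3 libraries from cells transfected with an siRNA against GDF15, and the NC group held 3 libraries from control cells. All 6 came from a single human thyroid cancer cell line, which the labels name KHM-5M, although a figure legend of the study names TPC-1. The methods list a negative control siRNA for the control cells and the deposited design text calls the control blank. If the NC cells received no siRNA, an effect of transfection and an effect of GDF15 silencing cannot be told apart. The methods call the replicates biological, and the p-values measure the spread between these libraries of 1 line only.

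MCM2 to MCM7 are related ATPases that assemble as a ring of 6 different subunits. During G1 phase the origin recognition complex, CDC6 and CDT1 load this ring around double-stranded DNA, where it is inactive, and in S phase CDC45 and the GINS complex join it to form the active helicase that unwinds DNA ahead of the polymerases. MCM8 and MCM9 form a separate hexamer that acts in homologous recombination, and MCM10 is not a ring subunit but a scaffold protein that binds the helicase when it is activated. MCM2 to MCM7 are classical targets of E2F transcription factors, which drive the genes of the G1 to S transition.

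The promoters of the members are shown first. Selecting by name did not use their sequence, but several of these genes were already known as E2F targets, so a match is no independent result. RefSeq promoters of the GRCh38.p14 assembly, each covering 250 bases before and 50 bases after an annotated start, were examined for 7 of 9 members. Those of MCM4 and MCM5 were not examined, so whether they hold the sites searched below was not tested. The E2F site was searched as TTTCCCGC, TTTCGCGC, TTTGCCGC or TTTGGCGC on both strands. At least 1 of these words was found for 5 of the 7 members, counting only the most upstream promoter of MCM7. Over all 35116 RefSeq promoters, where a gene can have several, 3.31% held one. The sequences below run 5′ to 3′ in the direction of the gene, from 250 bases before the start to 30 bases after it, with the E2F words in capitals. They are chr3:127598161-127598440 (+ strand), chr6:52284713-52284992 (- strand), chr2:135876414-135876693 (- strand) and chr7:100101368-100101647 (- strand, the most upstream of 3 annotated MCM7 starts).
MCM2: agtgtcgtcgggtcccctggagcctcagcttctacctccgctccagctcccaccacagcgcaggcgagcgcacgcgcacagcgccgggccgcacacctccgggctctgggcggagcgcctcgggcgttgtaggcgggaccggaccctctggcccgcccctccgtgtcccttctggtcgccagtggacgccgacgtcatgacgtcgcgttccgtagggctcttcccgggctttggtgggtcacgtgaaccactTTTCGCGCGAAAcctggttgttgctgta
MCM3: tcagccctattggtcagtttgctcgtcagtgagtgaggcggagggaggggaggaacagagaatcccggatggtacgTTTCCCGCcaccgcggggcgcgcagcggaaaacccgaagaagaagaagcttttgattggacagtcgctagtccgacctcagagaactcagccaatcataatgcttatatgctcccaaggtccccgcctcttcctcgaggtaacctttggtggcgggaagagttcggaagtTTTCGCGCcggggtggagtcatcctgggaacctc
MCM6: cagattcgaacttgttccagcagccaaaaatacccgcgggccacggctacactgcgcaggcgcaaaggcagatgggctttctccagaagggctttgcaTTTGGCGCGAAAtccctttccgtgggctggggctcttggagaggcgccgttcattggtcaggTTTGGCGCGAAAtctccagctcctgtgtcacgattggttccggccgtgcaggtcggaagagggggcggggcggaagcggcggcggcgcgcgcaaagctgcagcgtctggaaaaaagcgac
MCM7: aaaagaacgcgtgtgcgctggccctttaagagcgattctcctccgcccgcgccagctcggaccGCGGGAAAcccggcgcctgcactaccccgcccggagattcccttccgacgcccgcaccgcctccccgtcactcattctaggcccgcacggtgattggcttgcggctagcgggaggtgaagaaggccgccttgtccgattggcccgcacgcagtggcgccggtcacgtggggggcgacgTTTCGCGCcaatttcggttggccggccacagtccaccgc

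Positions are given from the annotated start, with negative values before it, for the first base of each word. MCM2 carried 2 E2F words that overlap as a palindrome, at 3 and 7. In MCM6 words also overlapped at 2 places, at -152 and -148 and again at -90 and -86. There the 2 words differed, TTTGGCGC and TTTCGCGC, so the overlap is not a palindrome. MCM3 held single words at -174 and -4, and MCM7 held single words at -187 and -9. The fifth promoter with a match was that of MCM8, with 1 word at 27. The other 2 MCM7 promoters held no E2F word.

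The promoters of MCM9 and MCM10, the members with the smallest and the largest change below, held none of the searched E2F words. Other forms of the site were not searched. The MCM10 sequence holds TTTGGCGG, which differs from the searched TTTGGCGC in its last base. They are chr6:118935130-118935409 (- strand) and chr10:13161308-13161587 (+ strand).
MCM9: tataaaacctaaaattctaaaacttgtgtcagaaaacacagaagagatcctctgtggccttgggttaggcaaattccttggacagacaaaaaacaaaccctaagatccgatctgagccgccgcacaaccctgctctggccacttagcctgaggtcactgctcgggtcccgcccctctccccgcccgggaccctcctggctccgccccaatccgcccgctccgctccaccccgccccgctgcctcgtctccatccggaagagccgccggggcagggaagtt
MCM10: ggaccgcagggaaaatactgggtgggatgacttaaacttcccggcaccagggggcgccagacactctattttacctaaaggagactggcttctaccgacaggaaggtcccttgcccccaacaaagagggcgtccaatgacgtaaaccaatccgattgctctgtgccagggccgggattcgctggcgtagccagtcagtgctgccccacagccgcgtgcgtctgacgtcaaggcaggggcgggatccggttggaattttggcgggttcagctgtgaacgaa

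The CCAAT box, searched as CCAAT, was found in 6 of the 7 member promoters and in 34.6% of all promoters, and the GC box, searched as GGGCGG, in 6 of 7 and in 45.0%. The CHR element, which marks many genes of G2 and M phase and was searched as TTTGAA, was found in 0 of 7 and in 15.2% of all promoters. Taking the most upstream promoter of MCM7, the GC content of the member promoters ranged from 57.3% to 68.3% and their CpG count from 21 to 39, beside medians of 58.7% and 14 over all promoters. The other 2 MCM7 promoters had a GC content of 72.0% and 69.7%. These matches describe letters in a window and not binding.

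Libraries held 67569576 to 68025163 counts in NC and 51738814 to 67793417 in siGDF15, where replicate 2 was the shallowest. GDF15, the silenced gene, was measured at 22.4, 19.3 and 23.1 FPKM in NC and at 10.8, 10.5 and 10.7 FPKM in siGDF15 (log2 fold change -0.92, SE 0.079, edgeR quasi-likelihood test with Benjamini-Hochberg adjusted p = 2.4e-05), which left 52.9% of the NC level. Genes were called lower with an adjusted p under 0.05 and a log2 fold change of -1 or less, and called higher with the same size in the other direction. By this rule 567 genes were called lower and 360 called higher, so that 38.8% of calls were higher. That share was 27.1% without TMM scaling and 23.4% or 27.0% with limma on log2 of FPKM plus 1 or plus 0.1, and it was 41.1% with upper-quartile scaling, 48.95% with the looser filter of 0.1 FPKM and 48.2% with no filter. Mitochondrially encoded genes took 6.39% to 6.78% of counts in NC and 8.53% to 9.17% in siGDF15. Of 8 thyroid markers 3 reached a mean of 1 FPKM, the transcription factors PAX8, HHEX and FOXE1, whereas TG, SLC5A5, NKX2-1 and DIO1 were near 0 and TSHR was not listed. PAX8 was at 59.1 ± 5.33 FPKM in NC and 79.4 ± 1.70 FPKM in the knockdown (SD, n = 3; log2 fold change 0.53, edgeR adjusted p = 1.2e-04). HHEX was lower (-0.56, edgeR adjusted p = 0.0014), and FOXE1 gave 0.14 (edgeR adjusted p = 0.22). The 7 listed thyroid markers summed to 61.5 to 71.9 FPKM in NC and 83.0 to 86.3 FPKM in siGDF15, most of it PAX8. The 4 epithelial markers summed to 91.4 to 133 and 111 to 122 FPKM, and the 5 fibroblast markers to 16.6 to 22.5 and 17.3 to 20.5 FPKM. Of the 4 listed blood markers 1 exceeded 1 FPKM, the macrophage marker CD68, with sums of 17.7 to 19.5 and 16.0 to 17.9 FPKM, whereas PTPRC, CD3E and HBB were near 0. The part of these in the results was not tested.

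All 6 ring subunits were lower in siGDF15 than in NC, with a median log2 fold change of -1.22 (-1.52 to -1.02), beside a median of 0.00 over all tested genes. The TMM scaling centres most genes near 0, and without it these medians were -1.32 and -0.099. MCM10 (-1.75) and MCM8 (-1.40) were lower as well. All 8 tested members were called lower, against 4.78% of all tested genes, and 8 of 8 passed the adjusted p alone in this direction, against 31.4% of tested genes. None was higher at that adjusted p, whereas 30.0% of tested genes were. For all 9 members every siGDF15 library lay below every NC library in FPKM, which 42.8% of tested genes also showed. In bulk RNA, fewer cells in S phase and less MCM RNA in each cell cannot be told apart.

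**Figure D1:**
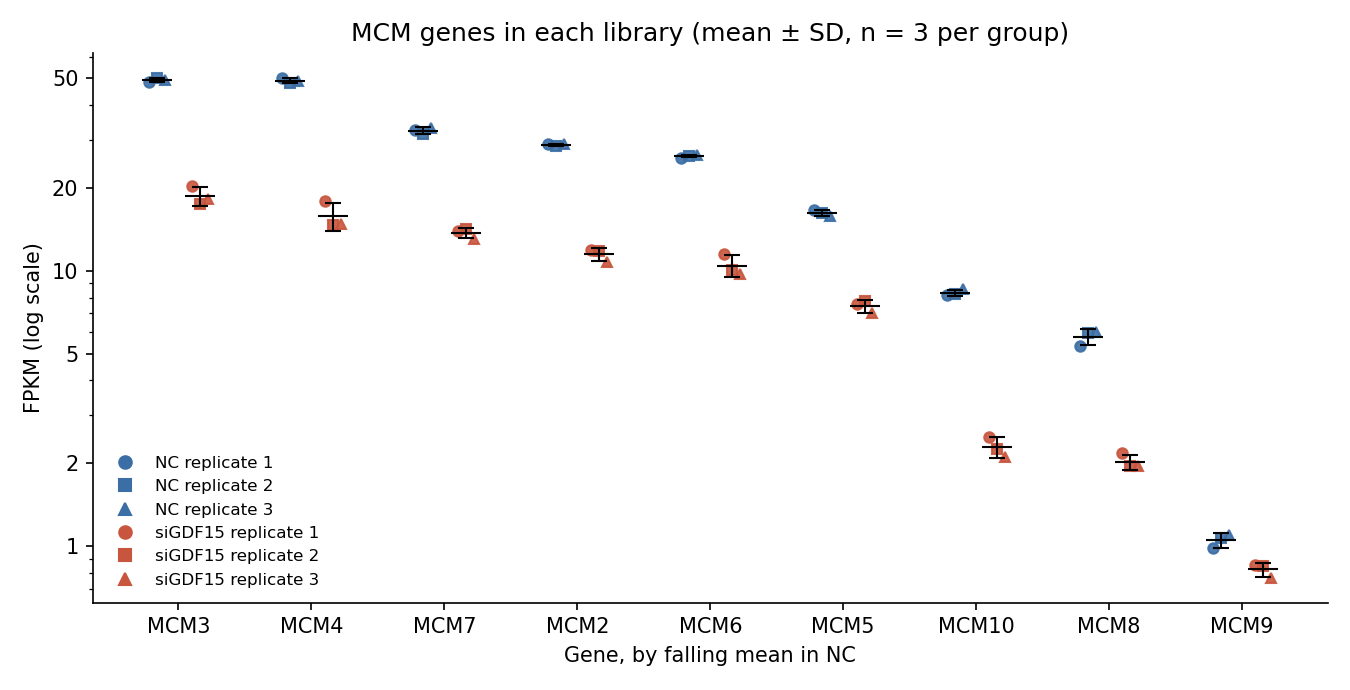
FPKM of the 9 MCM genes (log axis) in each of the 3 NC and 3 siGDF15 libraries, with the mean and SD of each group as black bars. The groups do not overlap for any gene, and the gap is narrowest for MCM9 (0.98 FPKM in the lowest NC library, 0.853 in the highest siGDF15 library).

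MCM4, MCM6 and MCM7 form the catalytic core of the ring. MCM4 (ENSG00000104738, chr8:47960185-47978160, + strand, GRCh38) was measured at 50.1, 48.0 and 49.0 FPKM in NC and at 18.0, 14.7 and 14.8 FPKM in siGDF15. Replicate 1 of siGDF15 stood above the other 2, and the groups lay far apart. The log2 fold change was -1.52 (SE 0.078, edgeR adjusted p = 1.6e-06), the largest fall among the 6 ring subunits. Its N-terminal tail is a main substrate of the CDC7 kinase, which fires origins.

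MCM6 (ENSG00000076003, chr2:135839626-135876443, - strand) was at 25.8, 26.1 and 26.3 FPKM in NC and at 11.5, 10.1 and 9.70 FPKM in siGDF15. The coefficient of variation was 1.02% in NC and 8.87% in siGDF15, and the groups did not overlap. The log2 fold change was -1.22 (SE 0.065, edgeR adjusted p = 2.0e-06). MCM7 (ENSG00000166508, chr7:100092728-100101940, - strand), the subunit that is ubiquitylated when the helicase is taken off DNA, was at 32.5, 31.3 and 33.1 FPKM in NC and at 14, 14.2 and 13.1 FPKM in siGDF15. Its log2 fold change was -1.13 (SE 0.053, edgeR adjusted p = 1.1e-06).

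MCM2 and MCM5 flank the gate through which the ring opens to admit DNA. MCM2 (ENSG00000073111, chr3:127598410-127622436, + strand), which also binds histones H3 and H4, was at 28.8, 28.3 and 28.8 FPKM in NC and at 11.9, 11.8 and 10.8 FPKM in siGDF15. Its promoter, shown above, has the palindromic E2F word at the start. The log2 fold change was -1.21 (SE 0.054, edgeR adjusted p = 9.2e-07). MCM5 (ENSG00000100297, chr22:35400134-35424501, + strand) was at 16.6, 16.2 and 15.8 FPKM in NC and at 7.56, 7.75 and 7.00 FPKM in siGDF15. Its log2 fold change of -1.02 (SE 0.055, edgeR adjusted p = 2.1e-06) was the smallest of the ring subunits and the closest to the size a call required. MCM5 fell short of that size with upper-quartile scaling (-0.99) and without siGDF15 replicate 3 (-0.97), with the adjusted p still under 0.05.

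MCM3 (ENSG00000112118, chr6:52264014-52284881, - strand), the subunit whose tail contacts the loading complex of ORC and CDC6, was at 48.7, 50.2 and 49.2 FPKM in NC and at 20.3, 17.5 and 18.2 FPKM in siGDF15. The log2 fold change was -1.30 (SE 0.056, edgeR adjusted p = 8.6e-07). Among the siGDF15 libraries replicate 1 held the highest value of every member except MCM5 and MCM7, for which replicate 2 was highest. The ring subunits were also taken against the NC mean in deposited FPKM, without the TMM scaling of the fitted fold changes. They stood at 36.8% to 46.6% in siGDF15 replicate 1, at 30.0% to 47.8% in replicate 2 and at 30.2% to 43.2% in replicate 3.

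The summed FPKM of MCM2 to MCM7 was 203, 200 and 202 in NC (202 ± 1.34, SD, n = 3) and 83.2, 76.0 and 73.6 in siGDF15 (77.6 ± 5.02). The subunits are present in equal number in the assembled ring, but their transcripts were not equal in level, and their fold changes spanned 0.51 on the log2 scale. Taking each gene as a share of the sum removes the scaling of the library. The shares of a library add up to the whole. A lower share of a gene therefore comes with higher shares of others, and the shares are not independent. MCM4 made up 24.7, 24.0 and 24.2% of the sum in NC and 21.7, 19.3 and 20.1% in siGDF15, a difference of -3.93 percentage points. The MCM7 share was higher in siGDF15, at 16.0 ± 0.362% in NC and 17.7 ± 0.903%, and so was the MCM5 share, at 8.04 ± 0.193% and 9.60 ± 0.559% (SD, n = 3 per group). The shares of MCM2 and MCM6 were higher by 0.606 and 0.484 points, and these fell to 0.232 without siGDF15 replicate 2 and to 0.304 without siGDF15 replicate 1. MCM3 was at 24.5 ± 0.540% and 24.0 ± 0.927% with overlapping groups.

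With 3 libraries against 3, an exact two-sided permutation test cannot go below p = 0.1, and each of the 5 shares without overlap reached that value (adjusted over the 6 shares, p = 0.12), while MCM3 gave p = 0.6. None of the shares could therefore pass a threshold of 0.05 in this design. On the log2 scale MCM4 stood 0.77 ± 0.025 above the mean of the other 5 subunits in NC and 0.42 ± 0.11 above it in siGDF15 (difference -0.35, exact permutation p = 0.1).

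**Figure D2:**
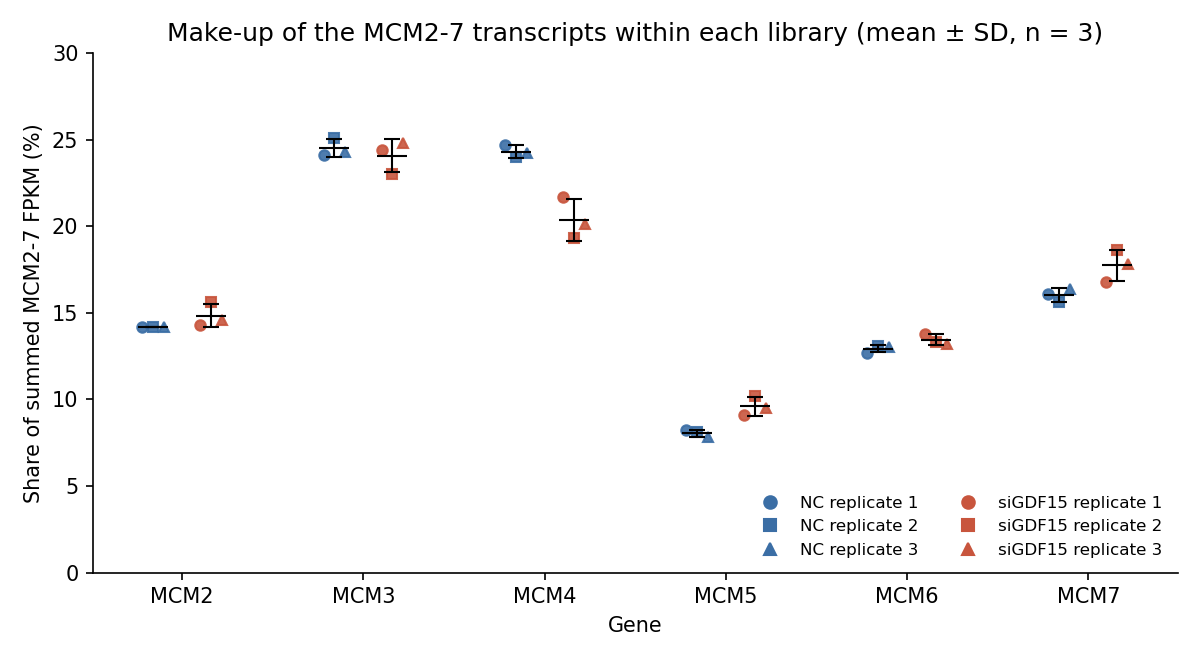
Share of each ring subunit in the summed MCM2 to MCM7 FPKM of the same library (percent, axis from 0), by library, with the mean and SD of 3 libraries per group. The MCM4 share is 24.3% in NC and 20.4% in siGDF15, those of MCM5 and MCM7 are higher in siGDF15, and the MCM3 groups overlap.

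The order of levels depended on which transcript length a count was divided by. In deposited FPKM the order in NC was MCM3, MCM4, MCM7, MCM2, MCM6, MCM5, MCM10, MCM8 and MCM9, and only MCM3 and MCM4 overlapped between neighbours. The order of means was the same in siGDF15, where MCM3 and MCM4 again overlapped, and so did MCM2 with MCM6 and MCM10 with MCM8. The length behind each FPKM was worked out from the ratio of count to FPKM. It was 9851 bases for MCM4, which is 2.36 times its principal transcript of 4183 bases, and 3644 bases for MCM3, 1.14 times a principal transcript of 3208 bases. Per kilobase of the principal transcript, MCM4 came to 115 FPKM in NC and 37.3 in siGDF15, and MCM3 to 56.1 and 21.2. MCM4 was then the most abundant member in both groups. MCM5, whose ratio was 2.06, came to 33.3 FPKM in NC on that scale, above MCM6 at 28.8. This scale assumes that all counts of a gene came from its principal transcript. For MCM4, 9851 bases was also more than the 6973 bases covered by all its GENCODE 29 exons. The reason was not tested. A single length per gene was applied to all libraries, and it cancels in the fold change of a gene.

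MCM8 (ENSG00000125885, chr20:5950652-5998977, + strand), the ATPase partner of MCM9 in recombination, was at 5.33, 5.96 and 6.01 FPKM in NC and at 2.17, 1.95 and 1.95 FPKM in siGDF15. The lowest NC library was replicate 1, and a locus annotated on the same strand over most of MCM8, ENSG00000286235, received 683 counts in that library and 0 in the other 5. How reads were divided between the 2 genes is not given in the sources used here, so the NC replicate 1 value is uncertain. The log2 fold change of MCM8 was -1.40 (SE 0.074, edgeR adjusted p = 1.9e-06), and it was -1.46 without NC replicate 1.

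MCM9 (ENSG00000111877, chr6:118813442-118935162, - strand), the partner of MCM8 in the complex of both, was at 0.980, 1.07 and 1.10 FPKM in NC and at 0.853, 0.845 and 0.768 FPKM in siGDF15. These rest on 923, 1008 and 1033 counts in NC and on 802, 612 and 722 counts in siGDF15. About 4 counts were inferred to correspond to 1 read pair. The groups did not overlap. The mean over all 6 libraries was 0.937 FPKM, under the filter of 1. Over the 19360 genes that averaged 0.1 FPKM or more, its log2 fold change was -0.28 (SE 0.090, edgeR adjusted p = 0.035), and 22.1% of those genes were lower at that adjusted p. The adjusted p of MCM9 was above 0.05 under 8 of 15 alternative settings, with a range of 0.012 to 0.14, and among them were those without NC replicate 2 or 3 and without siGDF15 replicate 1, 2 or 3. ASF1A, a histone chaperone gene on the other strand, lies inside MCM9 and was measured at 12.8 ± 0.441 FPKM (SD, n = 3) in NC and at 9.91 ± 0.227 FPKM in the knockdown. The log2 fold change of ASF1A was -0.27 (SE 0.059, edgeR adjusted p = 0.0043), close to the -0.28 of MCM9. Whether counting used the strand is not given in the sources used here, so exonic reads where the 2 genes overlap may not be told apart.

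Within each library, the log2 FPKM of MCM9 minus the mean log2 FPKM of the ring subunits was -5.01, -4.86 and -4.83 in NC. It was -3.95, -3.86 and -3.93 in siGDF15. The group means were 0.99 apart, with MCM9 nearer to the ring in siGDF15 (exact permutation p = 0.1, the smallest this design allows). For MCM8 the same quantity was -2.44 ± 0.10 in NC and -2.61 ± 0.034 in siGDF15 (SD, n = 3), a difference of -0.17 with no overlap (exact permutation p = 0.1). The differences of MCM8 and MCM9 had opposite signs, and the value for both genes together (0.41, exact permutation p = 0.1) averages over them.

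MCM10 (ENSG00000065328, chr10:13161558-13211110, + strand), which links the activated helicase to the polymerases, had the largest fall of the family. It was at 8.15, 8.23 and 8.56 FPKM in NC and at 2.50, 2.26 and 2.11 FPKM in siGDF15. The log2 fold change was -1.75 (SE 0.074, edgeR adjusted p = 7.9e-07), which leaves 29.7% of the NC level and ranks 106 of 11867 genes from the largest fall. Relative to the ring mean of the same library, its log2 FPKM was -1.91 ± 0.038 in NC and -2.44 ± 0.036 in siGDF15 (difference -0.52, exact permutation p = 0.1). In NC it was above MCM8, and in siGDF15 the 2 genes overlapped.

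The 4 lists of genes that act on the helicase held 30 genes, all tested, of which 23 were called lower and 0 higher (4.78% of tested genes were called lower). Their median log2 fold change was -1.42, with a range of -1.96 to -0.26. Of the 9 loading genes 5 were called lower, namely ORC1 (-1.21), ORC6 (-1.53), CDC6 (-1.26), the loader CDT1 (-1.39) and its inhibitor GMNN (-1.30). ORC1 is an ATPase of the origin recognition complex, and CDC6 is the ATPase that joins it before loading. ORC2 (-0.62), ORC3 (-0.70) and ORC4 (-0.31) passed the adjusted p and not the fold, and ORC5 gave -0.26 (edgeR adjusted p = 0.059).

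Of the 13 activation genes 12 were called lower, with a median of -1.50. They included CDC45 (-1.76) and the subunits GINS1 (-1.50), GINS2 (-1.58), GINS3 (-1.38) and GINS4 (-1.44), which complete the active helicase with MCM2 to MCM7. The firing factors RECQL4 (-1.82), TICRR (-1.73), MTBP (-1.84) and DONSON (-1.42) were among them too. CDC7 (-1.04) and its activator DBF4 (-1.04) were close to the required size, and the alternative activator DBF4B gave -1.78. TOPBP1 (-0.96, edgeR adjusted p = 1.5e-06) was the member of this list not called.

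Of 4 genes whose products travel with the helicase, 3 were called lower, the checkpoint mediator CLSPN (-1.90), WDHD1 (-1.61) and TIMELESS (-1.56). TIPIN, the partner of TIMELESS, gave -0.46 (edgeR adjusted p = 0.0046). Of 4 genes for binding and unloading of MCM proteins, 3 were called lower. These were TRAIP (-1.96) and LRR1 (-1.42), parts of ubiquitin ligases that act on MCM7, and HROB (-1.88), which loads the MCM8 and MCM9 complex. MCMBP, a chaperone of free MCM subunits, gave -0.72 (edgeR adjusted p = 5.0e-06).

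**Figure D3:**
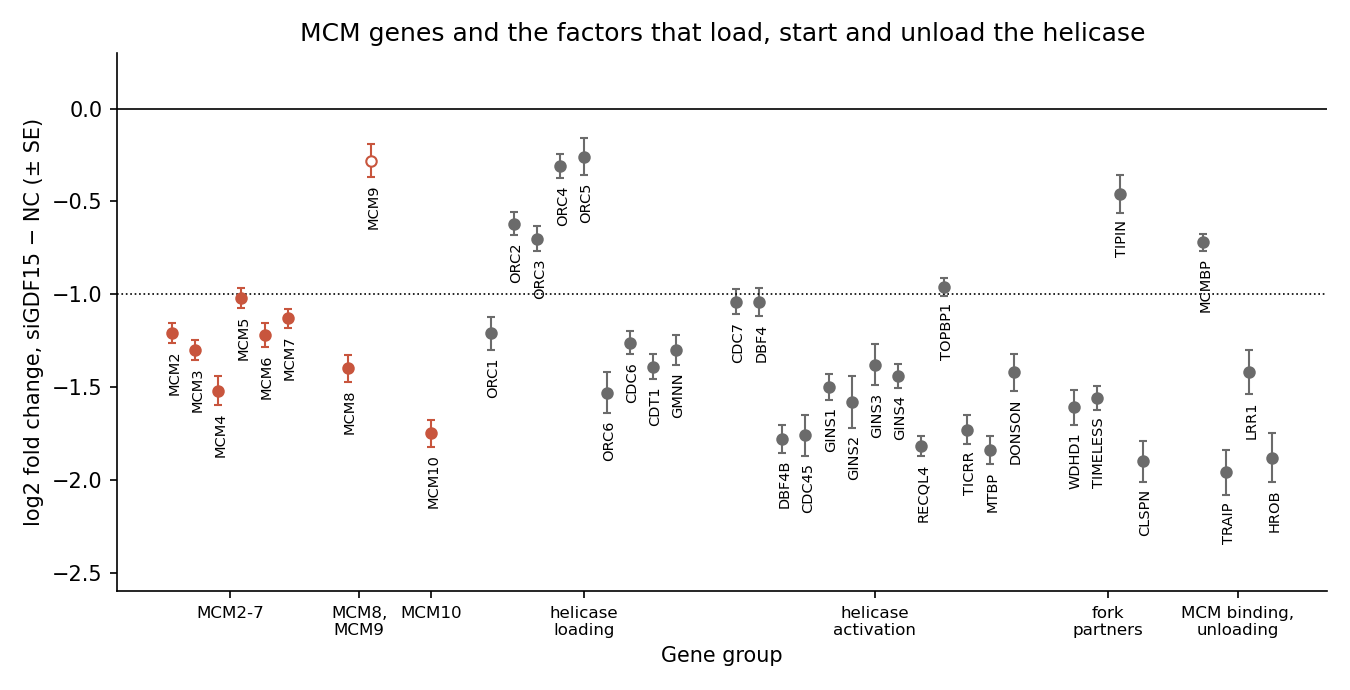
Log2 fold change (siGDF15 minus NC) with its SE for each MCM gene (red) and each gene of the 4 lists (grey), with a dotted line at -1. MCM9 (open circle) comes from the fit with the looser filter, and it lies with ORC4, ORC5 and TIPIN nearest to 0.

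Several members share their start region with a gene on the other strand, which gives a comparison with a neighbour that was not chosen by its function. TPRA1 starts 143 bases from MCM2 and was at 6.85, 6.42 and 7.42 FPKM in NC and at 8.30, 8.08 and 7.94 FPKM in siGDF15. All 3 siGDF15 libraries were higher, with a log2 fold change of 0.34 (SE 0.069, edgeR adjusted p = 0.0030), opposite to MCM2. AP4M1, a subunit of an adaptor complex, overlaps the start of MCM7 by 392 bases and was higher as well, at 2.48 ± 0.256 FPKM in NC and 2.91 ± 0.134 FPKM in siGDF15 (0.34, SE 0.093, edgeR adjusted p = 0.012). The noncoding gene ENSG00000253194, which starts 392 bases from MCM9, had 4 to 11 counts per library in NC and 2 to 4 in siGDF15, and ENSG00000285600, which overlaps the end of MCM2 on the other strand, had 47 to 82 and 17 to 29 counts. Both averaged under 1 FPKM and were not tested.

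PRKDC, which encodes the catalytic subunit of DNA-dependent protein kinase and starts 7 bases from MCM4, was lower, at 31.3 ± 0.109 FPKM in NC and 19.3 ± 1.18 FPKM in siGDF15 (-0.59, SE 0.048, edgeR adjusted p = 1.7e-05). TRMT6, a tRNA methyltransferase subunit that starts 94 bases from MCM8, was at 8.85 ± 0.805 and 6.18 ± 0.175 FPKM (-0.41, SE 0.080, edgeR adjusted p = 0.0022). The log2 ratio of member to neighbour differed between siGDF15 and NC by -1.56 for MCM2, -0.94 for MCM4, -1.47 for MCM7 and -1.0 for MCM8, without overlap in any pair (exact permutation p = 0.1 each and 0.1 adjusted over the 4 pairs).

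**Figure D4:**
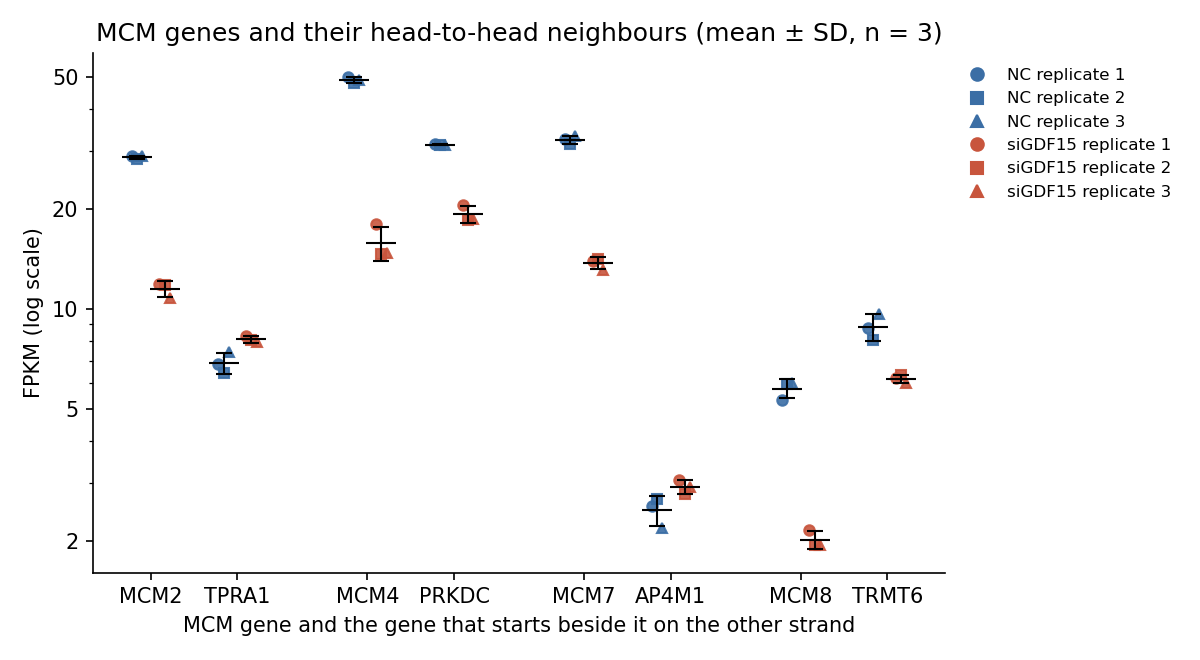
FPKM (log axis) of 4 MCM genes, each beside the gene that starts next to it on the other strand, by library, with the mean and SD of 3 libraries per group. The MCM genes are all lower in siGDF15, TPRA1 and AP4M1 are higher, and PRKDC and TRMT6 are lower by less than their MCM partner.

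The genes most like the ring in their pattern were found by Pearson's r between log2 CPM of each tested gene and the mean of MCM2 to MCM7 over the 6 libraries. The 5 highest among the 11859 other tested genes were SYNJ2 (r = 1.0000), ZWINT (0.9999), ODF2 (0.9998), NUP58 (0.9997) and TIMELESS (0.9997). SYNJ2, a phosphoinositide phosphatase gene, was at 3.29 ± 0.0240 FPKM in NC and 1.55 ± 0.0750 FPKM in siGDF15. ZWINT, a kinetochore gene, was at 93.1 ± 1.38 and 26.7 ± 2.29 FPKM. The libraries form 2 groups, and any gene with a difference that is large beside its spread has an r near 1 or -1, so 678 other genes (5.72%) had an r over 0.99. Of the members outside the mean, MCM10 had an r of 0.9997 and MCM8 an r of 0.9959. The ring subunits, which are part of the mean, had 0.9965 (MCM5) to 0.9990 (MCM6).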

How the data were processed

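Poly(A) RNA of 6 libraries, 3 NC and 3 siGDF15, had been sequenced as read pairs of 150 bases. The submitters' processing notes name fastp, HISAT2, StringTie, edgeR and the GRCh38 build, with versions not given in the sources used here. The values deposited by the authors were FPKM, which is scaled for length and sequencing depth, and an expected count per gene. The expected counts were computed by the authors from transcript coverage and are whole numbers without normalization. A value of about 4 counts per read pair was inferred from the most frequent low count. It is not given in the sources used here. The expected counts are no tally of reads, and precision was read from the spread between libraries.

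Groups and replicate numbers came from the sample titles. Genes averaging 1 FPKM or more were fitted with edgeR 4.0.16 (quasi-likelihood test, TMM, two-sided, Benjamini-Hochberg adjustment over all tested genes) in R 4.3.3. Each SE was calculated from the log2 fold change and the F statistic. Shares, ratios and differences within libraries used exact permutation tests over libraries. Calls required an adjusted p under 0.05 plus a change of 1 or more on the log2 scale in either direction. Transcript lengths came from GENCODE 29 and promoters from RefSeq. The fits were tested on simulated data.

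Named genes were all members, GDF15, the genes of the lists, genes starting within 1000 bases of a member's start on the other strand or overlapping a member, and the 5 genes most like MCM2 to MCM7. The members, lists and tests were chosen with earlier results of these data known. Alternatives were DESeq2 1.42.0, other scalings, filters and units, limma 3.58.1, the replicate block and leaving out each library. The authors' own comparisons were not used, and a planned thyroid marker is not reported here.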

Additional observations from a re-analysis of the deposited data

How the results depend on the processing

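In each of the 16 alternatives, 7 or 8 members were called lower, and MCM2 to MCM4, MCM6 to MCM8 and MCM10 were called in all of them. The median log2 fold change of MCM2 to MCM7 was -1.32 without TMM and -1.32 with limma on log2 of FPKM plus 0.1, while the median of all genes moved to -0.099 and -0.10, so that the ring moved with all genes. The number of all genes called was 927, and it was 560 with limma on log2 of FPKM plus 1 (the cause was not tested), 1669 with a mean FPKM of at least 0.1 and 1659 with no filter, where more genes were tested. DESeq2 called 915. Leaving out 1 library gave 7 to 8 members, a ring median of -1.26 to -1.16, 22 to 23 genes of the 4 lists, 907 to 1010 of all genes, an MCM4 share difference of -4.59 to -3.41 points and a difference of MCM8 and MCM9 from the ring of 0.352 to 0.440.

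The MCM4 share difference of -3.93 points was -5.69 on counts without length and -5.34 per kilobase of the principal transcript, and the sign of the MCM3 share varied with the setting (-0.804 to 0.164). The difference of MCM8 and MCM9 from the ring, 0.409, was -0.169 for MCM8 alone, 0.987 for MCM9 alone and -0.522 for MCM10 in their place. These per-gene values and the principal transcript were chosen after seeing the data.

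Replicate numbers did not pair the samples (correlations of same-numbered libraries 0.028, -0.075 and 0.046). With the replicate block 8 members and 943 genes were called, the ring median was -1.22, and MCM9 gave an adjusted p of 0.077 (edgeR). MCM9 had the fewest counts of the members, 612 to 1033 per library.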

Other observations

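The microRNA genes MIR25, MIR93 and MIR106B lie within MCM7 on its strand. They were listed with 8 to 16, 3 to 5 and 0 to 5 counts per library. At the inferred value of about 4 counts per read pair, this is too few to compare. A poly(A) library also does not measure the mature microRNAs. The antisense gene MCM8-AS1 was listed at 0 counts in 5 libraries and at 2 counts in siGDF15 replicate 2.

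Matches to the seed of the guide strand of the GDF15 siRNA were searched in 3′UTRs of GENCODE 29 transcripts, 1 per gene. For the members this was the principal transcript, and for other genes it was the coding transcript with the longest 3′UTR. A match was found in 0 of the 9 members and in 12.5% of 19133 coding genes. Because the 3′UTRs were chosen differently, these shares cannot be compared directly. This describes letters in those 3′UTRs and not binding.

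In the KEGG annotation that the gene table carries, the DNA replication and cell cycle pathways each list 6 of the members, MCM2 to MCM7.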
